A study of Mus musculus with 30 samples.

Results

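Neutrophil and blood monocyte transcripts were followed in CD11b+ cells isolated from mouse forebrain after loss of interleukin-34 (IL-34), which signals to microglia through the colony-stimulating factor receptor Csf1r. The 10 genes described are S100a8, S100a9, Ngp, Camp, Ltf, Retnlg and Cxcr2, which mark neutrophils, and Ly6c2, Ccr2 and Plac8, which mark inflammatory monocytes. They were taken by gene symbol from the 51752 genes of the deposited count table, where each symbol occurs once. The study has 30 RNA-seq libraries from 15 mice in 2 experiments. In the genotype experiment 4 mice heterozygous for Il34 (Het: animals 1, 20, 21 and 23), which keep an intact copy of the gene, were compared with 3 Il34 knockout mice (KO: animals 3, 6 and 24). In the antibody experiment 4 wild-type mice given anti-gp120, the control antibody (animals 1, 7, 8 and 15), were compared with 4 wild-type mice given anti-IL34 (animals 2, 10, 11 and 24). A number that occurs in both experiments belongs to different mice. All mice were perfused with saline, one hemisphere gave a whole-forebrain library and the other a library of cells held by CD11b magnetic beads. The ages, the antibody dose and schedule, and the construction of the Il34 allele are not given in the sources used here. Males numbered 2 of 4 among Het and anti-gp120 mice, 1 of 3 (animal 3) among KO mice and 3 of 4 among mice given anti-IL34, whose 1 female was animal 11.

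CD11b, the integrin subunit on which the beads select, is carried by microglia and also by neutrophils and monocytes, so any blood or border leukocyte left after perfusion can enter the isolate. Neutrophils fill their granules in the bone marrow and leave it with abundant mRNA of the calcium-binding alarmins S100a8 and S100a9, while transcripts of granule proteins made at the myelocyte stage decline as the cell matures. Classical monocytes carry the surface protein encoded by Ly6c2 and leave the marrow through the chemokine receptor Ccr2. In healthy brain tissue these cells sit mainly in vessels, meninges, choroid plexus and skull marrow rather than in the parenchyma. In such bulk libraries fewer cells of a type and less RNA per cell cannot be told apart.

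The identity of the isolates was checked on the genes named in these roles. Csf1r, the microglial receptor for IL-34, stood at 3877 ± 998 CPM (counts of a gene per M counts of the library, M standing for mega, scaled by the trimmed mean of M values, TMM) in the 4 Het isolates and at 1280 ± 75.8 CPM in the 3 KO isolates (mean ± SD throughout). It was 4740 ± 810 and 2318 ± 397 CPM (n = 4 each) in the anti-gp120 and anti-IL34 isolates. Forebrain Il34, the deleted gene, was 21.4 ± 2.37 CPM in Het and 7.72 ± 0.991 CPM in KO (log2 fold change -1.50, SE 0.105, edgeR adjusted p 1.01e-05). Total counts were 15.8 to 50.5 M in isolates and 15.1 to 75.2 M in forebrain libraries. Among other blood cells, 14 T and NK cell genes summed to between 1.61 and 4.90 CPM in the 15 isolates. The 8 B cell genes summed to between 62.0 and 275 CPM, most of it Ighm, the heavy chain of IgM, while Igkc, the kappa light chain, had 0 counts in all isolates.

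The genomic setting of the genes is given first, because some of them are neighbours and because shared sequence affects what a count means. In GENCODE M21 (GRCm38) S100a8 lies at chr3:90668978-90670035 on the plus strand and S100a9 at chr3:90692632-90695721 on the minus strand. The 3 granule genes Camp (chr9:109847379-109849617, minus), Ngp (chr9:110419747-110423012, plus) and Ltf (chr9:111019271-111042767, plus) lie in that order on chromosome 9, which also holds Ccr2 (chr9:124101950-124113557, plus). Retnlg is at chr16:48872621-48874496 (plus), Cxcr2 at chr1:74153989-74161246 (plus), Ly6c2 at chr15:75108158-75111970 (minus) and Plac8 at chr5:100553725-100572245 (minus). None of the 10 spans overlaps another annotated gene. The deposited gene length equalled the whole span, introns included, for each of the 10, so counts may have been taken over exons, UTRs and introns. Of the 50-base stretches of its transcripts, Ly6c2 shares 14.5% with other genes, mostly with its neighbour Ly6c1, a gene expressed in endothelium, and Cxcr2 shares 6.68% and Ccr2 1.91%. The other 7 genes share none, so Ly6c2 is the least certain of the 10.

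The start regions were searched for the binding motifs of factors of the granulocyte and monocyte programme. The C/EBP motif was searched as TTGCNNAA and the PU.1 motif as GAGGAAG, on both strands of a window from 250 bases before to 50 bases after each RefSeq start (GRCm38.p6); all 10 genes had a window. Over all genes, 10.8% of 32851 windows hold the C/EBP letters and 13.6% the PU.1 letters. The C/EBP letters occur in the windows of Ngp, Ltf, S100a9 and Retnlg and in 1 of the 2 windows of Plac8, and the PU.1 letters in those of S100a8 and Ly6c2; no window of the 10 genes holds both. The windows of Camp, Cxcr2 and Ccr2 hold neither. A match of letters is a description of the window and does not show that a factor binds there. One match upstream of both the RefSeq and the GENCODE start is shown for each of 6 genes, as examples of both motifs, 5′ to 3′ along the gene's strand, with up to 20 bases on each side and the matched letters in capitals, read on either strand. They lie at chr9:110419650-110419697 (Ngp), chr9:111019197-111019244 (Ltf), chr3:90695930-90695971 (S100a9), chr16:48872358-48872389 (Retnlg), chr3:90668880-90668926 (S100a8) and chr15:75112053-75112099 (Ly6c2).
Ngp, C/EBP: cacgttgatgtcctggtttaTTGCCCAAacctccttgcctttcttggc
Ltf, C/EBP: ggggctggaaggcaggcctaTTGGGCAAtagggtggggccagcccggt
S100a9, C/EBP: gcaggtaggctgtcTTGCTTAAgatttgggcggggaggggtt
Retnlg, C/EBP: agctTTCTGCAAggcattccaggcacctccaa
S100a8, PU.1: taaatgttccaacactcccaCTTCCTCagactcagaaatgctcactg
Ly6c2, PU.1: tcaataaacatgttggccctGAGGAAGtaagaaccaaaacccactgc

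S100a8 and S100a9 encode the 2 subunits of calprotectin, the most abundant cytosolic protein complex of neutrophils. S100a8 was at 4.09, 6.84, 5.37 and 7.21 CPM in Het isolates 1, 20, 21 and 23 and at 12.9, 3.39 and 5.48 CPM in KO isolates 3, 6 and 24. It was at 71.2, 28.1, 48.1 and 7.72 CPM in anti-gp120 isolates 1, 7, 8 and 15 and at 124, 41.1, 77.1 and 34.3 CPM in anti-IL34 isolates 2, 10, 11 and 24. The highest isolate, anti-IL34 animal 2, thus held 36.5 times the level of the lowest, KO animal 6, the widest range among the 10 genes. The antibody isolates alone spanned 7.72 to 124 CPM, with a median of 44.6 CPM beside 5.48 CPM in the genotype isolates. Anti-gp120 animal 15 was the only isolate of the antibody experiment that reached down to the range of the genotype experiment, whose highest isolate was KO animal 3.

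S100a9 ran in a similar order at higher counts. It was at 9.80, 14.9, 12.4 and 18.9 CPM in the Het isolates and at 28.4, 9.74 and 16.2 CPM in the KO isolates, in the animal order given for S100a8. In the antibody experiment it was at 116, 59.1, 80.0 and 15.99 CPM with anti-gp120 and at 176, 81.9, 120 and 50.9 CPM with anti-IL34. KO animal 3 and anti-gp120 animal 15 again stood apart from the rest of their arms, one above and the other below.

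Ngp (neutrophilic granule protein), Ltf (lactoferrin, an iron-binding protein) and Camp (the antimicrobial peptide cathelicidin) are contents of the secondary granules. Ngp was at 10.3, 12.5, 7.75 and 11.5 CPM in Het, 27.9, 5.91 and 7.59 CPM in KO, 33.4, 21.1, 39.2 and 7.78 CPM in anti-gp120 and 81.0, 29.1, 47.3 and 21.5 CPM in anti-IL34 isolates. KO animal 3 exceeded every Het isolate for Ngp and lay within the range of the anti-IL34 arm, while the other KO isolates lay below all Het isolates. Ltf was at 6.86, 7.46, 4.10 and 8.55 CPM in Het, 18.8, 4.20 and 3.77 CPM in KO, 24.1, 15.9, 29.8 and 5.83 CPM in anti-gp120 and 61.7, 22.2, 36.9 and 14.1 CPM in anti-IL34 isolates. Camp was the scarcest of the 3, from 0.634 to 1.23 CPM in Het, 0.392 to 3.11 CPM in KO, 0.524 to 2.08 CPM in anti-gp120 and 1.86 to 4.58 CPM in anti-IL34 isolates. For Camp, too, the highest KO isolate was animal 3 and the lowest anti-gp120 isolate animal 15.

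Retnlg encodes a resistin-like secreted protein of mature neutrophils, and Cxcr2 the chemokine receptor that draws them out of the marrow. Retnlg was at 1.15, 1.96, 2.95 and 4.30 CPM in Het, 3.86, 2.24 and 4.36 CPM in KO, 24.1, 12.8, 15.1 and 3.50 CPM in anti-gp120 and 30.1, 18.9, 25.7 and 9.40 CPM in anti-IL34 isolates. KO animal 3 was not the highest KO isolate for Retnlg, unlike for the granule genes. Cxcr2 ranged from 1.27 to 2.27 CPM in Het, 1.08 to 2.40 CPM in KO, 2.36 to 9.09 CPM in anti-gp120 and 3.59 to 11.3 CPM in anti-IL34 isolates. Anti-gp120 animal 15 gave the lowest value of its experiment for each of these 2 genes.

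The monocyte genes were distributed differently. Ly6c2 was at 0.404, 0.449, 0.281 and 0.513 CPM in Het, 0.401, 1.06 and 0.899 CPM in KO, 4.06, 0.617, 0.945 and 0.291 CPM in anti-gp120 and 3.48, 1.38, 1.48 and 1.62 CPM in anti-IL34 isolates. Its highest isolate was anti-gp120 animal 1, and its counts were as low as 7 in an isolate. Ccr2 was at 9.92, 10.4, 10.2 and 7.97 CPM in Het, 8.13, 9.74 and 4.67 CPM in KO, 30.9, 9.37, 9.32 and 7.17 CPM in anti-gp120 and 14.9, 8.64, 14.9 and 14.01 CPM in anti-IL34 isolates. For Ccr2 anti-gp120 animal 1 and anti-IL34 animals 2, 11 and 24 lay above the highest genotype isolate and the other antibody isolates within the genotype range. Its whole range, 6.61 times from lowest to highest, was the narrowest among the 10 genes. Plac8, a small cysteine-rich protein of monocytes and other leukocytes, was at 1.96, 4.54, 4.52 and 3.42 CPM in Het, 1.81, 8.47 and 5.35 CPM in KO, 30.0, 5.55, 3.97 and 3.87 CPM in anti-gp120 and 19.9, 9.10, 16.6 and 26.9 CPM in anti-IL34 isolates. KO animal 3, the KO isolate highest in Ngp, Ltf and Camp, was the lowest of all 15 isolates in Plac8.

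**Figure D1:**
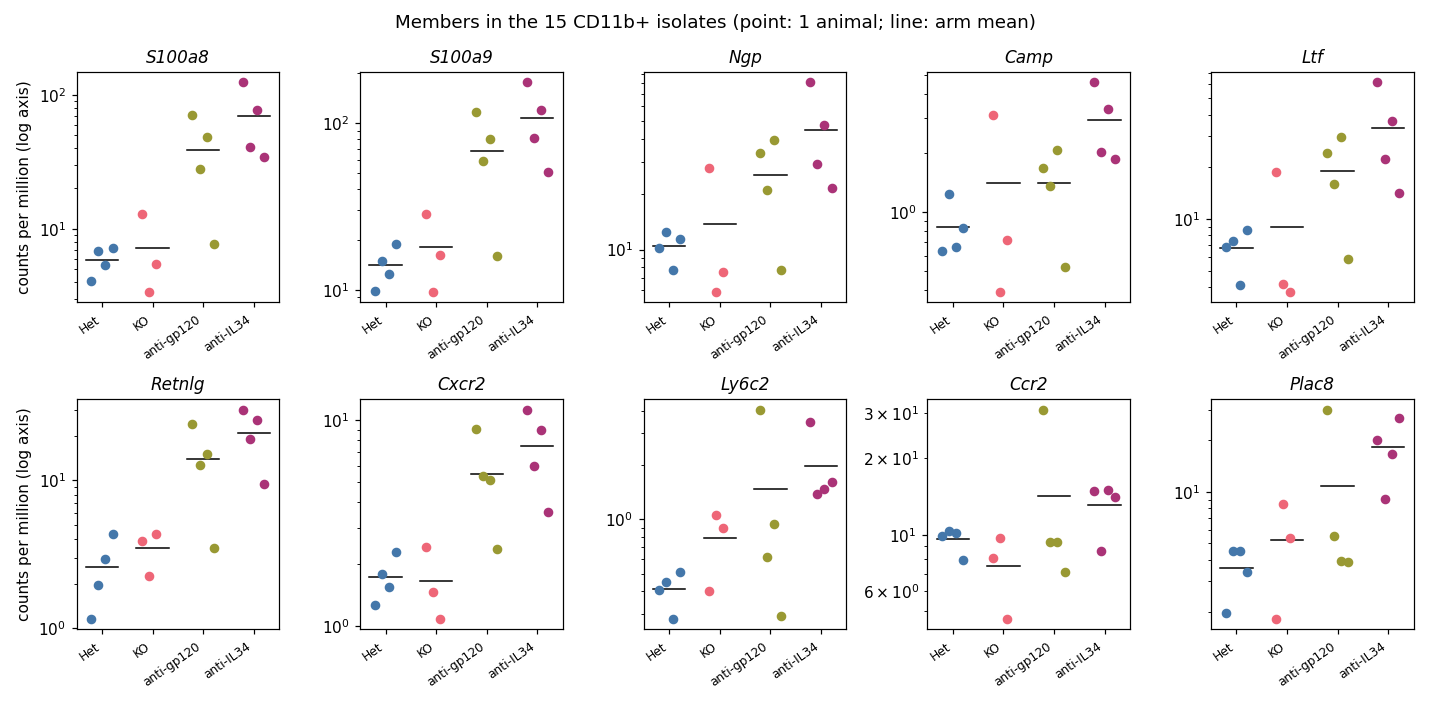
Scaled CPM (log axis, a separate scale for each gene) of the 10 genes in the 15 CD11b+ isolates, by arm; each point is 1 animal, in order of animal number, and each line an arm mean. For S100a8 the genotype isolates sit between 3.39 and 12.9 CPM and the antibody isolates between 7.72 and 124 CPM, while for Ccr2 4 of the 8 antibody isolates, the highest at 30.9 CPM, lie above the highest genotype isolate at 10.4 CPM.

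The highest isolate was anti-IL34 animal 2 for the 7 neutrophil genes and anti-gp120 animal 1 for the 3 monocyte genes. Summed over the 10 genes, the isolates held 46.4 to 65.4 CPM in Het, 46.6 to 108 CPM in KO, 55.0 to 345 CPM with anti-gp120 and 178 to 527 CPM with anti-IL34. On the same scale the 11 genes typical of resting microglia summed to at least 4104 CPM in each isolate. Levels of different genes can be set side by side only per length. As the median over isolates of CPM per kilobase of exon, S100a9 stood at 54.4, S100a8 at 18.5 and Ngp at 17.3, followed by Retnlg at 7.35, Ltf at 4.08, Plac8 at 3.36, Camp at 1.79, Ccr2 at 1.44, Cxcr2 at 0.789 and Ly6c2 at 0.328. The order among neighbours such as S100a8 and Ngp, or Camp and Ccr2, is smaller than the range of each gene over the isolates. If introns were counted, the value of a gene with long introns, such as Ltf or Plac8, can be too high on this scale.

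In whole forebrain the 10 genes were close to the limit of detection. S100a9 was the highest, at 0.0223 to 2.14 CPM with a median of 0.551 CPM over the 15 libraries. Ly6c2 had 0 counts in 10 libraries, Camp in 9, Retnlg in 6 and Cxcr2 in 5, where a count of 0 allows up to 0.0399 CPM in the deepest and 0.199 CPM in the shallowest library (3 counts, for counting error only). S100a8 was at 0 to 0.351 CPM in the 7 genotype forebrains and at 0.321 to 1.36 CPM in the 8 antibody forebrains. Plac8 was at 0.0306 to 0.166 CPM and 0.0657 to 0.781 CPM in the same libraries, and Ngp at 0 to 0.849 CPM and 0.0459 to 0.778 CPM. The experiments thus overlapped in forebrain for each of these 3 genes, and for Ngp over nearly the whole range. Anti-IL34 animal 2, the highest isolate for S100a8, also gave the highest forebrain value for it, and anti-gp120 animal 1 gave the highest forebrain values for Ly6c2, Ccr2, Plac8 and Cxcr2. The highest forebrain values for Ngp and Camp came from Het animal 20. The 2 libraries of an animal come from separate hemispheres.

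The contrast of isolate with forebrain asks how far bead isolation enriched these transcripts, and was fitted over the 8 control animals. Both libraries of each animal entered this fit as separate libraries. The log2 fold change was 5.73 for S100a8 (SE 0.502), 6.04 for Ngp (SE 0.541), 6.37 for Retnlg (SE 0.533) and 4.74 for Ccr2 (SE 0.294), beside 6.17 for Csf1r (SE 0.189). All 10 genes were higher in the isolates at an edgeR adjusted p of at most 2.31e-06, where 40.5% of the genes tested were higher. Because the genes reached the fit through their isolate counts, this number describes them and is no evidence about them. The enrichment of S100a8 and of Csf1r differed by less than the SE of S100a8.

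**Figure D2:**
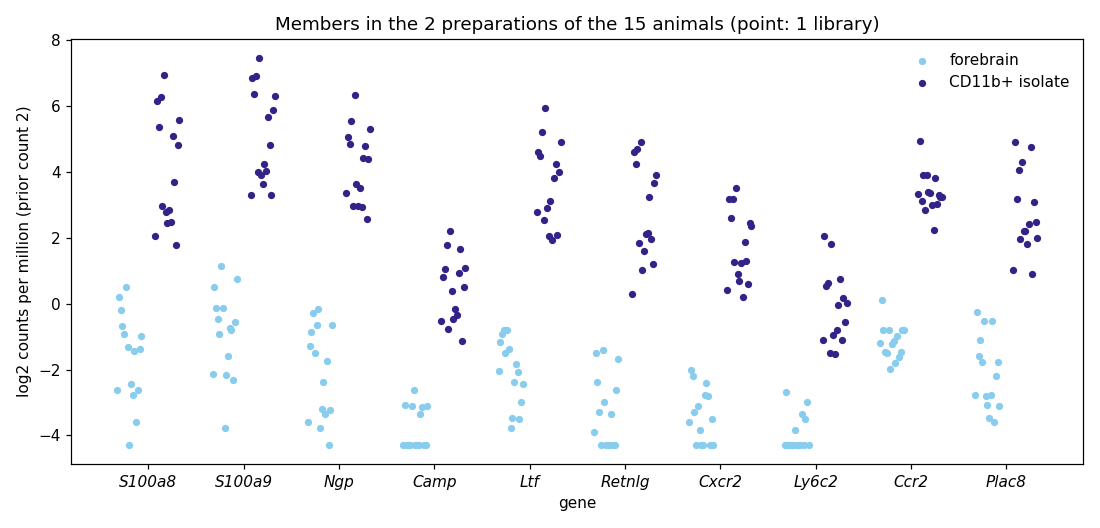
Log2 CPM (prior count 2) of the 10 genes in the 15 forebrain libraries (light points) and 15 CD11b+ isolates (dark points), each scaled within its preparation. The forebrain points on the lowest line have 0 counts, as for Ly6c2 in 10 libraries, and every gene is higher in the isolates.

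KO isolates were compared with Het isolates to ask whether deletion of Il34 altered the leukocyte transcripts. None of the 10 genes passed the threshold (edgeR, adjusted p under 0.05), where 5.37% of the 18185 genes tested did. That share of all genes rests on single animals. The 976 genes behind it became 0 when KO animal 3, KO animal 6, KO animal 24, Het animal 20 or Het animal 23 was omitted, 3115 when Het animal 21 was omitted and 5756 when Het animal 1 was omitted. By DESeq2 the count of the 10 was also 0, where 21.4% of all genes (3887) were called. Of the 10, only Ly6c2 had an unadjusted edgeR p under 0.05, as did 5932 of the 18185 genes tested. For 0 of the 10 genes were the arms fully separate, while 38.6% of all genes tested had separate arms. The log2 fold change was 0.25 for S100a8 (SE 0.472, edgeR adjusted p 0.723), 0.26 for Ngp (SE 0.524, edgeR adjusted p 0.750) and 0.74 for Ly6c2 (SE 0.313, edgeR adjusted p 0.153). Ccr2 was the lowest at -0.32 (SE 0.262, edgeR adjusted p 0.406). The remaining 6 genes lay between -0.06 (Cxcr2) and 0.57 (Camp), and the median over the 10 was 0.25, beside 0.02 over all genes tested. In the same fit the 11 tested genes of resting microglia all passed and were lower in KO, with a median log2 fold change of -1.61.

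Of the 6 neutrophil genes with a positive value in KO, 5 turned negative without KO animal 3, the only male of that arm. Without it the log2 fold change was -0.70 for S100a8, -0.41 for S100a9, -0.86 for Ngp, -0.94 for Camp and -1.04 for Ltf, none of which passed the threshold. Retnlg was then at 0.02. S100a8 also turned negative without Het animal 1 (-0.01), and Ngp (-0.11) and Ltf (-0.22) without Het animal 21. Ly6c2 kept a positive value, 0.62 to 0.98, and Ccr2 a negative one, -0.59 to -0.10, in all 7 fits that left out 1 animal. Sex and animal cannot be told apart for KO animal 3. Haemoglobin and other red cell genes summed to 13.4 to 50.4 CPM in KO and 10.8 to 24.8 CPM in Het isolates, with 0 of 5 tested genes called; the part of residual blood was not tested.

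Anti-IL34 isolates were compared with anti-gp120 isolates to ask the same of the blocking antibody. Of the 10 genes 0 passed (edgeR, adjusted p under 0.05), where 0.626% of the 17570 genes tested did, a count of 110 that was 0 to 6905 with 1 animal left out (0 without anti-IL34 10 or anti-gp120 7, 6905 without anti-gp120 15). DESeq2 called 0 of the 10 as well, where it called 11.5% of all genes (2015). Camp alone of the 10 had an unadjusted edgeR p under 0.05, as did 4559 of the 17570 genes tested. Fully separate arms were found for 0 of the 10 genes and for 16.9% of all genes tested. Fitted values were positive for 9 of the 10, at a median of 0.73 on the log2 scale beside 0.06 over all genes. The neutrophil genes among them varied together between animals, as given below, so this is not a count of independent results. S100a8 had a log2 fold change of 0.83 (SE 0.650, edgeR adjusted p 0.397), Ngp of 0.83 (SE 0.569, edgeR adjusted p 0.341) and Camp of 1.11 (SE 0.470, edgeR adjusted p 0.189). Plac8 had 0.81 (SE 0.609, edgeR adjusted p 0.382) and Ccr2 -0.10 (SE 0.438, edgeR adjusted p 0.889).

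Single animals moved these values over wide ranges. For the monocyte genes, omitting anti-gp120 animal 1 and omitting anti-IL34 animal 11 shifted the values in opposite directions. Without anti-gp120 animal 1, high in Ly6c2, Ccr2 and Plac8, the log2 fold change was 1.6 for Ly6c2, 0.65 for Ccr2 and 1.94 for Plac8. Without anti-IL34 animal 11, the only female of its arm, Ly6c2 was at -0.19, Ccr2 at -0.68, Plac8 at 0.07, Retnlg at 0.09 and Cxcr2 at -0.05. The values of S100a8 (0.41 to 1.38), Ngp (0.38 to 1.23), Ltf (0.38 to 1.25) and Camp (0.81 to 1.38) were positive in all 8 fits. None of the 10 genes passed the threshold in any of these fits.

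**Figure D3:**
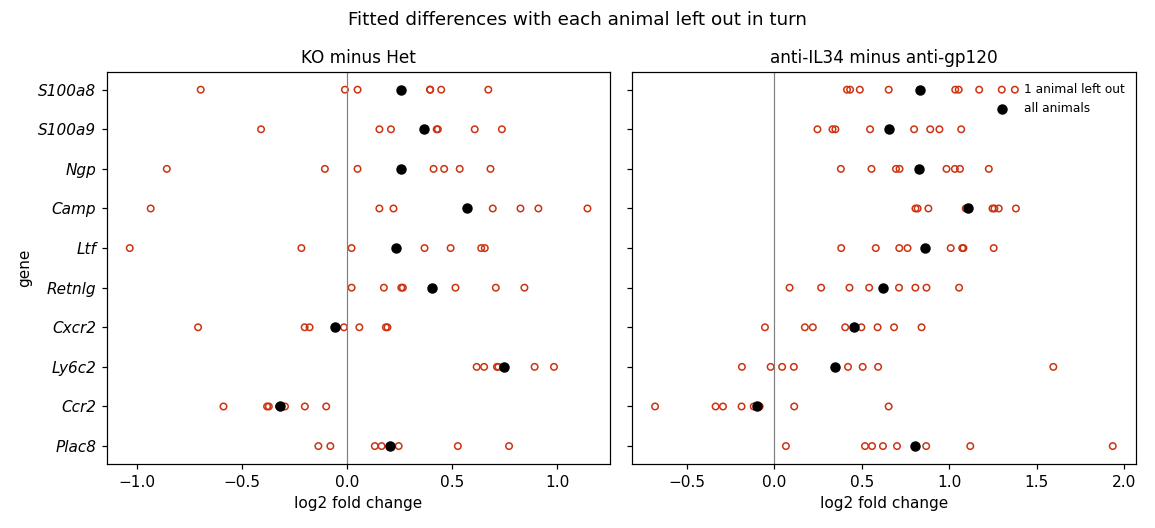
Log2 fold changes of the 10 genes in the isolates, KO minus Het (left) and anti-IL34 minus anti-gp120 (right), with all animals (filled) and with 1 animal left out (open). The open points far to the left for S100a8, S100a9, Ngp, Camp and Ltf in the KO comparison, -0.41 to -1.04, are the fits without KO animal 3.

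The difference between the effect of deletion and that of the antibody was tested over the 15 isolates. None of the 10 genes passed, and 0 of the 18732 genes tested did (0.0%), with 740 genes at an unadjusted edgeR p under 0.05; DESeq2 called 35 genes and none of the 10. The difference was -0.56 for S100a8 (SE 0.868), -0.43 for Ngp (SE 0.812) and 0.68 for Ly6c2 (SE 0.989) on the log2 scale, with edgeR adjusted p 1.0 for each. In forebrain only S100a9 and Ccr2 had enough counts to be tested between KO and Het. S100a9 had a log2 fold change of -0.04 (SE 0.780) and Ccr2 of -0.22 (SE 0.372), neither called, where 0.62% of genes were. Between the antibody arms S100a8 (0.14, SE 0.463), S100a9 (-0.09, SE 0.473), Ngp (0.78, SE 0.593) and Ccr2 (-0.60, SE 0.329) were tested in forebrain. None was called there, where 0.717% of genes were, and their edgeR adjusted p was 0.999. Both forebrain counts of 0 also held by DESeq2. None of these genes had an unadjusted edgeR p under 0.05, as 1441 of 19343 genes had between KO and Het and 833 of 17143 between the antibody arms.

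The control arms of the 2 experiments, which also serve in the comparisons above, were set against each other. Het isolates were compared with anti-gp120 isolates, a contrast in which Il34 genotype, the control antibody and the experiment cannot be told apart. All 10 fitted values were lower in Het, with a median of -1.55 on the log2 scale beside -0.03 over all genes tested. Without anti-gp120 animal 1 Ccr2 turned positive, at 0.14, and Plac8 was at -0.30. S100a8 had a log2 fold change of -2.67 (SE 0.620, edgeR adjusted p 0.0962), Retnlg of -2.31 (SE 0.619, edgeR adjusted p 0.160) and S100a9 of -2.23 (SE 0.554, edgeR adjusted p 0.124). Cxcr2 followed at -1.59 (SE 0.414, edgeR adjusted p 0.144) and Ltf at -1.50 (SE 0.480, edgeR adjusted p 0.285), while Ccr2 was at -0.44 (SE 0.398, edgeR adjusted p 0.862). None of the 10 passed the edgeR threshold, where 1.94% of genes did. An unadjusted edgeR p under 0.05 was found for 6 of the 10 and for 1568 of the 17140 genes tested. Of the 333 genes called, 324 were higher and 9 lower in Het, and with 1 animal left out the number was 67 (without anti-gp120 animal 8) to 329 (without anti-gp120 animal 1). The arms were fully separate for S100a8 and Cxcr2, 2 of the 10 genes, and for 7.92% of all genes tested. DESeq2 called 5 of the 10, where 4.36% of all genes (748 of 17140) were called. Without anti-gp120 animal 15 edgeR called 4 (S100a8, S100a9, Ngp and Ltf), beside 136 of 16784 genes. The isolate of animal 15 was the lowest of its arm for all 10 genes, though for Plac8 only narrowly (3.87 beside 3.97 CPM in animal 8).

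**Figure D4:**
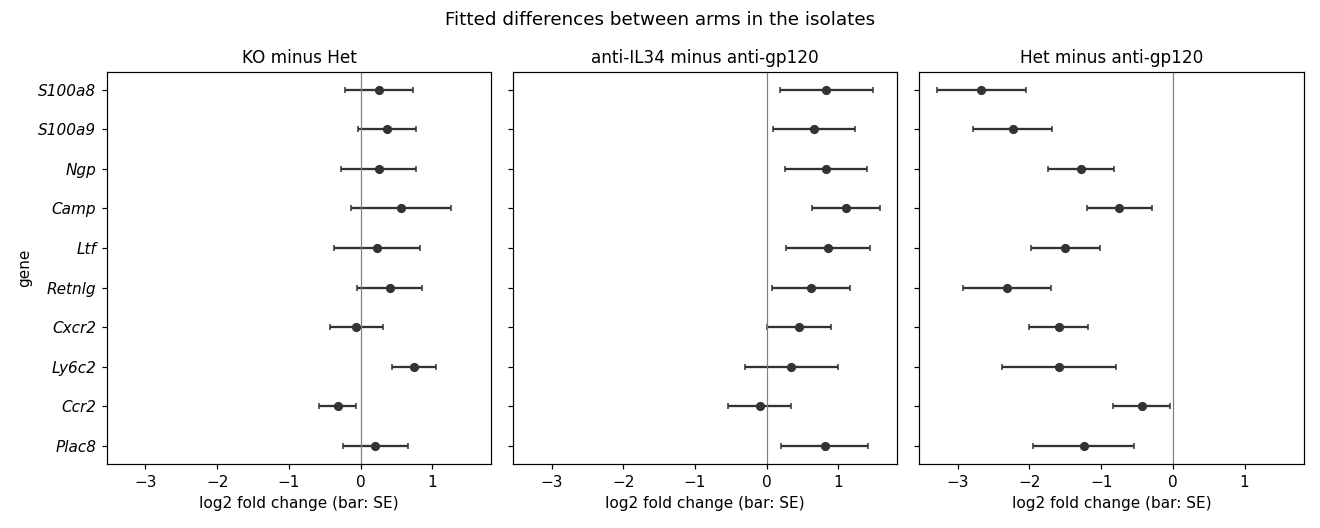
Log2 fold changes with their SE for the 10 genes in 3 comparisons of isolates: KO minus Het, anti-IL34 minus anti-gp120 and Het minus anti-gp120. In the third, S100a8 lies at -2.67 and Ccr2 at -0.44, and none of the values passed the edgeR threshold.

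After these values were seen, both arms of each experiment were joined to use all 15 isolates (mean of Het and KO minus mean of anti-gp120 and anti-IL34, with sex as a covariate). In this contrast 6 of the 10 genes were lower in the genotype experiment (edgeR, adjusted p under 0.05), where 5.93% of the genes tested were lower. S100a8 had a log2 fold change of -2.91 (SE 0.476, edgeR adjusted p 0.00852), S100a9 of -2.36 (SE 0.411), Retnlg of -2.46 (SE 0.426) and Cxcr2 of -1.86 (SE 0.324), the last 3 at an edgeR adjusted p of 0.00916. Ltf (-1.67, SE 0.453, edgeR adjusted p 0.0339) and Ngp (-1.45, SE 0.419, edgeR adjusted p 0.0421) were also called. Camp (-0.86), Ly6c2 (-1.42), Plac8 (-1.55) and Ccr2 (-0.58) did not pass, at edgeR adjusted p 0.217, 0.117, 0.0933 and 0.226. S100a8, S100a9, Retnlg and Cxcr2 passed in all 15 fits that left out 1 animal, Ltf in 7 and Ngp in 4. Camp, Ly6c2 and Plac8 each passed in 1 of these fits and Ccr2 in 0. Without KO animal 3 the log2 fold change was -1.66 for Camp and -2.35 for Ltf. The number of all genes called in either direction moved widely in those fits, from 2099 with all animals to between 613 (without anti-IL34 animal 11) and 3614 (without Het animal 21). For none of the 10 genes did the 2 sets of isolates separate fully, as they did for 0.929% of all genes tested. Since the contrast was chosen on these samples, it describes a difference between experiments and is no independent evidence of it.

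Other neutrophil genes, from lists that were likewise drawn up with earlier results of these data known, were read in the same contrast. Of 11 tested genes of granule contents 7 were lower in the genotype experiment, where 5.93% of all genes tested were, among them Lcn2 (-3.11, SE 0.386), a siderophore-binding protein, Hp (-2.13, SE 0.342), haptoglobin, and Mmp8 (-2.81, SE 0.509), neutrophil collagenase. The median over the 11 was -1.56, beside -0.02 over all genes. Of 10 surface and signalling genes 5 were lower. They included Csf3r (-1.08, SE 0.187), the G-CSF receptor, Fpr1 (-1.97, SE 0.347), a receptor for formylated peptides, and Trem1 (-1.55, SE 0.297). Csf3r held 159751 counts over the 15 isolates, beside 922 for Fpr1 and 4407 for Trem1. Csf3r was also lower in KO than in Het isolates, as given below, and which cells its counts came from was not tested. Ly6g, the surface protein by which mouse neutrophils are usually recognised, was also lower (-2.51, SE 0.708), at no more than 1.56 CPM in any isolate. Elane and Ctsg, proteases made in early granulocyte precursors, had 26 and 22 counts over all 15 isolates together. Of 9 other neutrophil genes 5 were lower, with Ifitm6 (-2.59, SE 0.417) and the cysteine protease inhibitors Stfa3 (-3.77, SE 0.696) and Stfa2l1 (-2.15, SE 0.477) among them.

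Of 14 monocyte genes beyond the 3 members 4 were lower in the genotype experiment, again beside 5.93% of all genes: Cd300e (-1.56, SE 0.344), Nr4a1 (-0.92, SE 0.213), Ms4a4c (-1.92, SE 0.499) and Ly6c1 (-0.69, SE 0.179). Nr4a1 stood at 303 to 916 CPM in the arm means and is also an immediate early gene, and Ly6c1 is an endothelial marker. Of 11 tested ligands, receptors and growth factors that act on neutrophils and monocytes 4 were lower: Ackr1 (-2.54, SE 0.283), the atypical chemokine receptor of venules and red cells, Ccl12 (-1.16, SE 0.278), Cxcl1 (-1.33, SE 0.337), a ligand of Cxcr2, and Csf3 (-1.59, SE 0.465), the gene of G-CSF. Among markers of other cells, 0 of 5 red cell, 0 of 3 T and NK cell, 0 of 6 B cell and 0 of 5 platelet genes tested were called. Of 8 endothelial genes 1, Ly6c1, was lower, of 8 border macrophage genes 1, Cd209f, was higher (as were 988 of all 18732 genes), and of 11 genes of resting microglia 4 were lower, with a median of -0.38. Red cell genes summed to 10.8 to 50.4 CPM in the genotype and 6.93 to 26.2 CPM in the antibody isolates, and their part in the result was not tested.

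In the comparisons of treated with control arms few genes of these lists were called, where 5.37% of all genes tested passed between KO and Het and 0.626% between the antibody arms. Between KO and Het isolates 0 of 9 granule genes, 0 of 7 other neutrophil genes and 0 of 14 monocyte genes were called. The genes with the most counts over the isolates, which is not an order of levels, were, on the granule list, Lcn2 (-0.02, SE 0.546) and Olfm4 (-1.13, SE 0.303, edgeR adjusted p 0.0820), and on the monocyte list Fn1, fibronectin (0.29, SE 0.293), and Nr4a1 (-0.83, SE 0.308). On the list of other neutrophil genes they were Mxd1 (-0.40, SE 0.181) and Hdc, the histamine-forming enzyme (-0.07, SE 0.329). Csf3r was the 1 called gene of 9 on the surface list and was lower in KO (log2 fold change -1.47, SE 0.226, edgeR adjusted p 0.0201), at 342 ± 87.4 CPM in 4 Het isolates and 123 ± 7.23 CPM in 3 KO isolates. It was lower in KO forebrain (-1.64, SE 0.161, edgeR adjusted p 0.000208) and with anti-IL34 in forebrain too (-0.98, SE 0.165, edgeR adjusted p 0.0198). The part of any one cell type in the Csf3r counts was not tested. Of 10 tested ligand and receptor genes Tlr4, the receptor through which S100a8 and S100a9 signal, was lower in KO (-1.07, SE 0.156, edgeR adjusted p 0.0172). Between the antibody arms 0 of 10 granule, 0 of 10 surface, 0 of 8 other neutrophil, 0 of 14 monocyte and 0 of 11 ligand and receptor genes were called. Fitted values were positive for 9 of 10 granule genes (median 0.73) and 8 of 10 surface genes (0.27). They were positive for 7 of 8 other neutrophil genes (0.74) and 13 of 14 monocyte genes (0.64), beside a median of 0.06 over all genes tested. Neutrophil genes such as Mmp8 and Cd177 varied with S100a8 between animals, as given below, so these are not counts of independent results. Values of the lists with 1 animal left out are not given. Among the genes with the most counts Lcn2 was at 0.74 (SE 0.455), Csf3r at -0.52 (SE 0.266), Mxd1 at -0.42 (SE 0.267) and Fn1 at 0.13 (SE 0.250). Between Het and anti-gp120 isolates Lcn2 (-2.84, SE 0.468, edgeR adjusted p 0.0264) of 9 granule genes and Ackr1 (-2.46, SE 0.412, edgeR adjusted p 0.0264) of 9 ligand and receptor genes were called, where 1.94% of all genes were. On the other lists 0 of 9 surface, 0 of 7 other neutrophil and 0 of 14 monocyte genes were called.

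The genes were next compared by how they varied among animals of an arm. Deviations of log2 CPM from the arm mean were correlated over the 15 isolates, which share their library steps with one another, as a description. S100a8 varied most like S100a9 (Pearson r 0.985), followed by Ngp (0.938), Cxcr2 (0.900), Ltf (0.896), Camp (0.883) and Retnlg (0.855). Its values with the monocyte genes were lower, at 0.581 for Ly6c2, 0.524 for Ccr2 and 0.211 for Plac8. Ccr2 in turn had 0.724 with Plac8 and 0.722 with Ly6c2. Anti-gp120 animal 1 was the highest isolate for these 3 genes, with Ccr2 at 30.9 CPM beside 7.17 to 9.37 CPM in the rest of its arm. Correlations without this animal were not computed, a limit that also holds for the genes most like Ccr2. Among the 18732 genes tested the 6 outside the set most like S100a8 were Mmp8 (0.974), Stfa3 (0.958), Pira12 (0.941), Stfa2 (0.936), Cstdc5 (0.933) and Cd177 (0.921). The 6 most like Ccr2 were Clec12a (0.959), Phf11b (0.922), Bst2 (0.915), Phf11 (0.899), Gm6548 (0.888) and Il18bp (0.887), a list with no gene in common with the first.

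Ratios of counts within an isolate do not depend on library size, and were looked at after the levels were seen. S100a8 had 0.399 to 0.722 counts for each count of Ngp in the 7 genotype isolates (median 0.574) and 0.993 to 2.13 in the 8 antibody isolates (median 1.47). The 2 sets did not overlap, and anti-gp120 animal 15, low in both genes, was the lowest antibody isolate at 0.993. KO animal 3, high in both genes, was at 0.461. The ratio of S100a8 to S100a9 was 0.338 to 0.460 and 0.475 to 0.704 in the same sets, again without overlap. The other 7 ratios computed overlapped between the sets. S100a9 to Ngp was at 0.955 to 2.14 and 2.04 to 3.48, Retnlg to Ngp at 0.112 to 0.574 and 0.372 to 0.721, and Cxcr2 to Ngp at 0.0862 to 0.246 and 0.13 to 0.303. Ltf to Ngp, both from secondary granules, overlapped at 0.497 to 0.746 and 0.655 to 0.780, as did Camp to Ngp at 0.0618 to 0.112 and 0.0504 to 0.0864. Ccr2 and Plac8 to S100a9 overlapped as well. No test was made on these ratios, which use the same counts as the fits above and add no separate evidence. How often ratios of other gene pairs separate the same isolates was not computed.

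**Figure D5:**
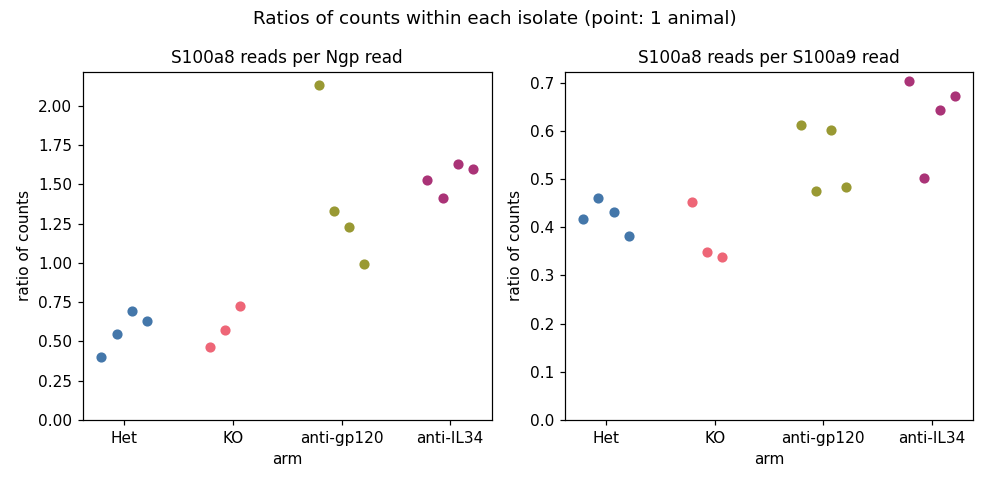
Ratios of raw counts within each CD11b+ isolate, S100a8 to Ngp (left) and S100a8 to S100a9 (right), by arm; each point is 1 animal and both axes start at 0. The genotype isolates (Het and KO) lie at 0.399 to 0.722 for S100a8 to Ngp and the antibody isolates at 0.993 to 2.13.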

How the data were processed

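The authors deposited whole-number read counts per gene for whole forebrain and CD11b-bead isolates, with a gene Length in base pairs (another unit, equal to the gene span for 51183 of 51498 matched identifiers), and a sample sheet whose animal numbers (a further unit without a scale) matched the titles for 30 of 30 libraries. Libraries were made with a SMART-Seq v4 kit, per the labels' protocols. The submitters' processing notes name GRCm38, STAR 2.7.5c, featureCounts 1.6.3 and R 4.4.0, without their settings; strand use is not given in the sources used here. The deposited TPM values were not used, nor were 6 columns of counts for other samples. Groups came from the labels. The 10 genes, the gene lists and the motifs were chosen with earlier results of these data known.

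Differences in counts were fitted in R 4.3.3 by the quasi-likelihood F test of edgeR 4.0.16, with TMM scaling, filterByExpr on the group and a term for sex. P-values were adjusted by Benjamini-Hochberg over all genes tested (threshold 0.05), and the code was first tested on simulated data. The SE was derived from the log2 fold change and its F statistic. Levels are CPM with TMM factors over the 15 libraries of a preparation; log2 CPM used a prior count of 2. Alternatives were DESeq2 1.42.0, its size factors (RLE), no count filter, no sex term, 1 fit over the 15 libraries of a preparation and each animal left out. Each of 42 replicate pairs differed beyond sampling noise (lowest chi-square per degree of freedom 5.48). P-values of comparisons within a preparation were computed against the spread between these animals. The contrast of isolate with forebrain took both libraries of an animal as separate, so its p-values do not rest on that spread alone. The 2 libraries of an animal are paired through its number in the labels; their deviations from the group means correlated at a median of 0.156 (range 0.0613 to 0.24), and the contrast of isolate with forebrain was refitted with the animal as a replicate block. From each gene list the text names up to 3 of its called genes, by smallest p, or more where a count of 5 or fewer is spelled out. Genes named otherwise were chosen after their values were seen.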

Additional observations from a re-analysis of the deposited data

Results flagged for a closer look

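Over 45 groups of 4 libraries with at least 40 counts of a gene, 5 had a library whose gap to the nearest of the others, as a share of the group's range in log2 CPM, exceeded Dixon's 95% critical value; chance gives about 1 in 20. In the isolates these were Ly6c2 in anti-IL34 animal 2, above the rest of its arm (0.832), and Ccr2 in anti-IL34 animal 10, below the rest (0.884). In forebrain they were Het animal 20, high in Ngp (0.844, at 0.849 CPM) and low in Ccr2 (0.910, at 0.203 CPM), and anti-IL34 animal 24, low in Ltf (0.884, at 0.229 CPM). The forebrain values rest on few counts.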

How the results depend on the processing

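The number of the 10 genes called was 0 under every alternative run for KO against Het isolates, anti-IL34 against anti-gp120 isolates, the difference of these effects and both forebrain comparisons. With 1 animal left out this says nothing of stability in the isolates, since such fits called 0 genes of any kind in 5 of 7 cases for KO against Het and at most 6 in 6 of 8 for the antibody. For isolate against forebrain it was 10 (also with the paired fit, the replicate block by animal, which called 10). For Het against anti-gp120 isolates, 0 with edgeR, it was 5 with DESeq2 (748 of all genes), 6 without a filter on low counts (720), 1 without the sex term (442), 0 with RLE scaling (317) or 1 fit over 15 libraries (160), 6 with both arms of each experiment (2099, added after seeing the data) and 0 to 4 with 1 animal left out (67 to 329). The contrast of the experiments called 6 and, under its alternatives, 4 to 8, beside 613 to 3614 of all genes. Some uncalled values changed sign when 1 animal was left out. For KO minus Het the log2 fold change then ran from -0.70 to 0.67 for S100a8, -0.41 to 0.74 for S100a9, -0.86 to 0.68 for Ngp, -0.94 to 1.14 for Camp, -1.04 to 0.65 for Ltf, -0.71 to 0.19 for Cxcr2 and -0.14 to 0.77 for Plac8. For anti-IL34 minus anti-gp120 it ran from -0.68 to 0.65 for Ccr2, -0.0544 to 0.84 for Cxcr2 and -0.19 to 1.6 for Ly6c2, and for Het minus anti-gp120 from -0.64 to 0.14 for Ccr2. The cause of these changes was not tested, beyond the loss of an animal. The number of animals, 3 or 4 an arm, limits all comparisons, and near 1 CPM counting error adds to the spread.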

Other observations

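Of the markers of lymphocytes and platelets, 3 genes were called between KO and Het isolates and 1 between the antibody isolates, with 0 of 3 T and NK cell genes in either and 0 of 4 B cell genes with anti-IL34. Cd79b (log2 fold change -1.39, SE 0.197, edgeR adjusted p 0.0165) and Ighm (-1.31, SE 0.279, edgeR adjusted p 0.0471), named for B cells, were lower in KO than in Het isolates, 2 of 5 B cell genes tested. These stand beside 5.37% of all genes called between KO and Het isolates and 0.626% between the antibody isolates. Gp9, named for platelets, was lower in KO (-1.88, SE 0.336, edgeR adjusted p 0.0289) and with anti-IL34 (-2.70, SE 0.363, edgeR adjusted p 0.0374), the 1 called gene of 5 tested in each. The other 4 platelet genes had values of both signs: Gp1bb had 0.80 (SE 0.642) and 1.03 (SE 0.563), Itga2b -0.07 and 0.20, Pf4 -0.30 and -0.52, and Treml1 -0.98 and -0.85, none called. Their expression by cells other than B cells and platelets was not tested.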
